A study of Mus musculus with 14 samples.

Results

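Chemokines and their receptors were described in 14 mouse mammary tumors. The genes were taken by name: every gene symbol of the Ccl, Cxcl, Ccr and Cxcr series that stands in both deposited count sheets, together with *Xcl1*, *Cx3cl1* and *Cx3cr1*. This gave 50 of the 17232 genes that the sheets share, 33 ligands and 17 receptors. Of these, 38 had counts above 0 in all 14 libraries, and 12 had a mean under 1 CPM (assigned counts relative to the library total, scaled between libraries with TMM). *Cxcl3* was listed in the sheet of the *Lats1* experiment only, with 5, 1, 0 and 4 counts in the *Lats1*-CKO tumors 27, 18, 14 and 21 and 0 counts in each of the 3 WT tumors, and it was left out of the members. All 50 members matched GRCm38 gene models. The ligands of Cxcr2 *Cxcl5* (90759360 to 90761624), *Cxcl1* (90891241 to 90893115) and *Cxcl2* (90903871 to 90905938) lie in a cluster on the + strand of chromosome 5, and *Ccl9* (83572919 to 83578636) and *Ccl6* (83587882 to 83593087) lie next to each other on the − strand of chromosome 11. Of all members, 14 are on chromosome 11, 10 on chromosome 9 and 9 on chromosome 5. Exons of 8 members share bases with a gene on the opposite strand, and in libraries that do not mark strand the reads there cannot be told apart. The shared stretch was 41.7% of the exon bases of *Cxcl11*, 20.5% of *Cxcl16* and 18.7% of *Xcl1*, and at most 3.79% with any single opposite-strand gene for *Ccl25*, *Ccl27a*, *Ccr9*, *Cx3cr1* and *Cxcr5*. *Ccr9* also shares 4.81% with *Gm17200* on its own strand.

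Chemokines are small secreted proteins that direct the movement of cells along concentration gradients. They are named by the spacing of conserved cysteines (CC, CXC, CX3C and XC) and act through receptors that couple to inhibitory G proteins. In a mammary tumor they can come from epithelial tumor cells, fibroblasts, endothelium and immune cells, whereas most of the receptors are carried by leukocytes. CXC ligands that bind Cxcr2 are known for drawing neutrophils, the interferon-induced ligands of Cxcr3 for drawing T and NK cells, and the ligands of Ccr7 and Cxcr5 for ordering lymphocytes in lymph nodes.

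All mice carried MMTV-PyMT, the polyomavirus middle T antigen driven in the mammary gland. In *Lats2*-CKO PyMT mice exon 5 of *Lats2*, and in *Lats1*-CKO PyMT mice exon 4 of *Lats1*, was deleted by a Cre that the paper describes as mammary-specific. Whether leukocytes, fibroblasts and vessels of the same tumor kept the gene was not tested. The controls were WT-PyMT littermates without the deletion. Strain and age are not in the labels of these tumors. In the *Lats2* experiment there were 3 WT tumors (14 and 2, adenomas, and 1, a carcinoma) and 4 *Lats2*-CKO tumors (7, an adenoma, and 1, 16 and 8, carcinomas). In the *Lats1* experiment there were 3 WT tumors (17, a carcinoma, and 20 and 22, adenomas) and 4 *Lats1*-CKO tumors (27, an adenoma, 18 and 14, carcinomas, and 21, an adenosquamous carcinoma). For the *Lats2* experiment the paper states that the tumors came from different mice, and for the *Lats1* experiment this is not stated. The experiments share no tumor. Values of a group are given below in the order WT 14, 2 and 1, *Lats2*-CKO 1, 7, 16 and 8, WT 17, 20 and 22, and *Lats1*-CKO 27, 18, 14 and 21. The RNA is of whole tumor pieces, in which fewer cells of a type and less RNA per cell cannot be told apart.

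The libraries held 18593864 to 31909282 assigned counts. *Lats1* was at 32.1 to 37.3 CPM in the *Lats1*-CKO tumors and at 102 to 124 CPM in their WT tumors. *Lats2* was at 8.49, 16.4 and 11.0 CPM in *Lats2*-CKO 7, 16 and 8, but at 33.7 CPM in the library labelled *Lats2*-CKO 1, within the 23.8 to 55.9 CPM of its WT tumors. The adenomas WT 14 and WT 22 stood apart by transcripts of lymphocytes. The sum of 15 T and NK cell markers (15 of 17 listed were measured) was 3498 CPM in WT 14 and 678 CPM in WT 22, against 11.2 to 84.0 CPM in the other 12, and that of 13 B and plasma cell markers (of 14 listed) was 2409.6 and 653 CPM against 2.79 to 151 CPM. *Lats2*-CKO 7 held 2523 CPM of 8 skeletal muscle genes and 77292 CPM of 6 milk protein genes. The muscle genes also summed to 865 CPM in *Lats1*-CKO 21, 260 CPM in WT 17 and 204 CPM in *Lats1*-CKO 14, and to at most 17.5 CPM elsewhere. Luminal epithelial markers summed to 1602 to 6040.4 CPM over all 14 libraries, lowest in WT 14.

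Promoters of some members on which the results turn are shown first, so that the neighboring gene pairs *Cxcl1* and *Cxcl2* (chromosome 5) and *Ccl6* and *Ccl9* (chromosome 11), and *Cxcl10*, can be compared. For *Cxcl5*, *Ccl5*, *Ccr7* and *Cxcr5*, which are also named in the results below, no RefSeq promoter was at hand. Each sequence is the RefSeq GRCm38.p6 stretch of 300 bases from 250 before to 50 after the annotated gene start, 5′ to 3′ on the gene's strand. Capitals mark matches to the consensus of NF-κB, the factor that many inflammatory signals activate, or to GAAANNGAAA, the core of the interferon-stimulated response element. Both strands were searched, and where matches on the 2 strands overlap they form a single stretch of capitals. No capitals in *Ccl6* says only that these letters are not in this window.
Cxcl1, chr5:90890995-90891294, + strand: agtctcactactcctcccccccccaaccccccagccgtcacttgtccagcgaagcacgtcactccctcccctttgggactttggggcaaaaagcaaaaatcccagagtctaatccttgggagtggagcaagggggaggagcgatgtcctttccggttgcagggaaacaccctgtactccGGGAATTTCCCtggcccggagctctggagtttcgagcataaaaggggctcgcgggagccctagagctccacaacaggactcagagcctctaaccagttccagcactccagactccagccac
Cxcl2, chr5:90903649-90903948, + strand: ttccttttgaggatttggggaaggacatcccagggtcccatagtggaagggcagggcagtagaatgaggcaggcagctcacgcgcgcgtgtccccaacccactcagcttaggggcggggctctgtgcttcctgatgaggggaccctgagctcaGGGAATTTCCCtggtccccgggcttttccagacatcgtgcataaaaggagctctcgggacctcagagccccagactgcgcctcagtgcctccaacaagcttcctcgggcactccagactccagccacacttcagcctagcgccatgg
Cxcl10, chr5:92348840-92349139, − strand: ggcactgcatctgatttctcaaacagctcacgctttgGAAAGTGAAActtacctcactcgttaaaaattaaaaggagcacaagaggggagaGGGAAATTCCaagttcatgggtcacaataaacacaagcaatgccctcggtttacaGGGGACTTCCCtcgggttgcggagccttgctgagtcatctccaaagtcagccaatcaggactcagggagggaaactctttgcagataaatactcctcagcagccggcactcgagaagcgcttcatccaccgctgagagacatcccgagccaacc
Ccl9, chr11:83578587-83578886, − strand: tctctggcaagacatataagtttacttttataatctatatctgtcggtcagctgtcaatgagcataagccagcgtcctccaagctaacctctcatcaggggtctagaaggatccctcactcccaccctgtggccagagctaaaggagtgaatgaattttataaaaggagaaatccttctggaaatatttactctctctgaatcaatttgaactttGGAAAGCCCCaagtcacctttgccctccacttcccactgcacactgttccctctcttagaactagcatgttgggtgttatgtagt
Ccl6, chr11:83593038-83593337, − strand: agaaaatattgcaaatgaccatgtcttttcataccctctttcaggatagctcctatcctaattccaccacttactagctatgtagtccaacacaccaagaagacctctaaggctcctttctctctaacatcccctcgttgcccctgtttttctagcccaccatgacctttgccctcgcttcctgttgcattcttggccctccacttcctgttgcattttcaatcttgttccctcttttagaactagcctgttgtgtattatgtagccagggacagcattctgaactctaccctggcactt

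The NF-κB stretch of *Cxcl1* began 71 bases and that of *Cxcl2* 97 bases before the gene start, with the same 11 letters in both. *Cxcl10*, which has 2 such stretches, had its interferon element 213 bases before the start. RefSeq promoters were at hand for 36 of the 50 members, 40 promoters in all. Of these, 10 (25%) held the NF-κB consensus, against 8.46% of 32851 mouse promoters of the same length, and 3 (7.5%), those of *Cxcl10*, *Cxcl14* and *Ccl19*, held the interferon element, against 3.44%. CATTCC, the core bound by TEAD factors, the partners of YAP and TAZ that the LATS kinases restrain, stood in 5 (12.5%) of the member promoters and in 14.7% of all. These are matches of letters and not measured binding.

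Over the 14 libraries the members' levels per kilobase of exon spanned a wide range. The median was highest for *Cx3cl1* (38.6 CPM per kb), the membrane-anchored fractalkine, followed by *Cxcr4* (29.1), the receptor of Cxcl12, *Cxcl14* (19.3), an epithelial ligand, *Ccl8* (19.0), an attractant of monocytes, and *Cxcl16* (18.3), a membrane-anchored ligand of Cxcr6. The neighbors in this order overlapped between libraries, since *Cx3cl1* ranged from 14.2 to 79.3 CPM per kb and *Cxcr4* from 17.4 to 86.4. *Cxcr1* had a median of 0.

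**Figure D1:**
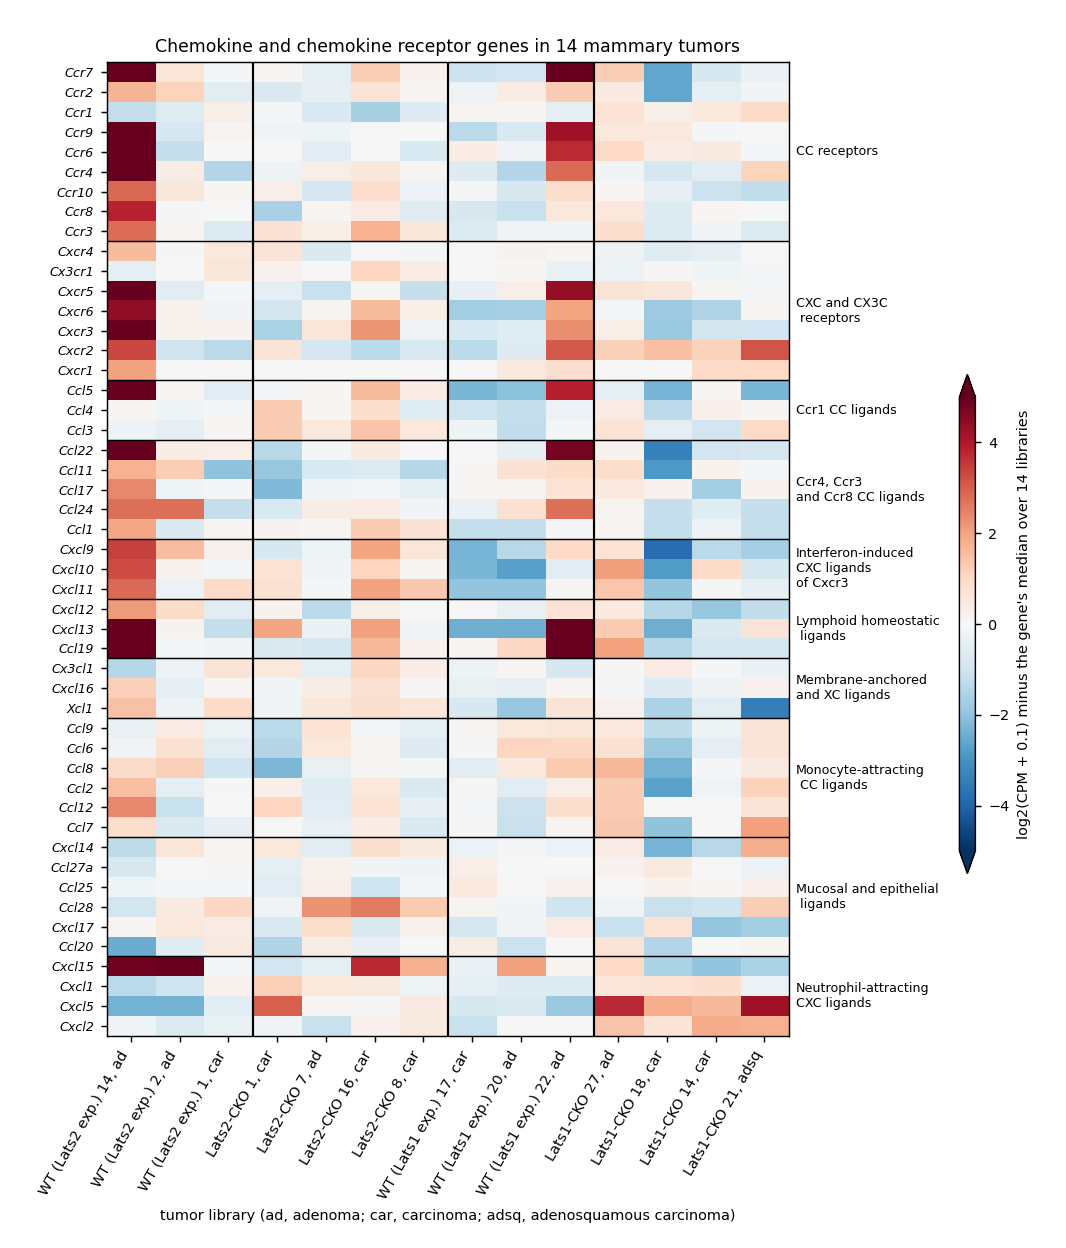
Levels of members (rows, grouped by role) in the 14 tumor libraries (columns, black lines between groups), colored by log2(CPM + 0.1) minus the gene's own median over the libraries, with colors ending at 5 log2 units. WT 14 and WT 22 carry the darkest red cells, in receptors and ligands of lymphocytes, and *Cxcl5* is red in the *Lats1*-CKO columns and in the library labelled *Lats2*-CKO 1.

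The ligands of Cxcr2, which draw neutrophils, had the smallest p-values of all members in the *Lats1* experiment. *Cxcl5* was at 6.75, 1.67, 1.46 and 9.49 CPM in *Lats1*-CKO tumors (137, 34, 32 and 189 counts) and at 0.192, 0.203 and 0.0385 CPM in their WT tumors (5, 5 and 1 counts). Every *Lats1*-CKO tumor was above every WT tumor, highest in the adenosquamous tumor 21 and the adenoma 27. The log2 fold change was 4.997 ± 0.99 SE, where SE is the standard error of the fit. It was not called by edgeR's quasi-likelihood test over all genes (adjusted p = 0.195) and was called by DESeq2 on the same counts (adjusted p = 1.35e-05). With DESeq2 the call held without each library in turn and with histology as a covariate (adjusted p from 1.06e-06 to 6.27e-04). *Cxcl5* is also expressed by epithelial cells and platelets, and its source cannot be read from whole tumors.

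*Cxcl1*, another ligand of Cxcr2, was at 5.67, 5.95, 6.68 and 3.01 CPM in *Lats1*-CKO and at 2.69, 2.35 and 2.35 CPM in WT tumors. The groups did not overlap, though the adenosquamous tumor 21 was close to WT 17. The log2 fold change was 1.09 ± 0.33 SE, with an adjusted p of 0.340 from edgeR and 0.0434 from DESeq2. The DESeq2 call was lost without *Lats1*-CKO 14, 18 or 27 or WT 17, 20 or 22 (adjusted p from 0.138 to 0.225) and with histology as a covariate (0.198), and it was kept without *Lats1*-CKO 21 (1.25e-04), while the DESeq2 log2 fold change stayed between 0.98 and 1.29. *Cxcl2*, the neighbor of *Cxcl1*, was low throughout, at 0.493, 0.246, 0.687 and 0.653 CPM (10, 5, 15 and 13 counts) against 0, 0.122 and 0.115 CPM (0, 3 and 3 counts). Again each *Lats1*-CKO tumor was above each WT tumor, with a log2 fold change of 2.61 ± 0.87 SE that was not called (adjusted p = 0.383 from edgeR and 0.149 from DESeq2). With 4 tumors against 3, an exact two-sided permutation test of a single gene cannot give a p below 0.0571.

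*Cxcl15*, known as lungkine in mouse lung, did not follow the ligands above. It was at 21.9, 34.6 and 0.604 CPM in the WT and 0.290, 0.427, 10.04 and 2.45 CPM in the *Lats2*-CKO tumors, and at 0.499, 2.96 and 0.693 (WT) and 1.38, 0.148, 0.0915 and 0.151 (CKO) CPM in the *Lats1* experiment. In the *Lats2* experiment high values stood in WT 14, WT 2 and *Lats2*-CKO 16, and in the *Lats1* experiment *Lats1*-CKO 27 lay above WT 17 and WT 22. The groups overlapped in both experiments.

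In the *Lats2* experiment *Cxcl5* was at 3.93, 0.427, 0.389 and 0.587 CPM in *Lats2*-CKO and at 0, 0 and 0.249 CPM in WT tumors (0, 0 and 7 counts). The groups did not overlap, but the library labelled *Lats2*-CKO 1 was far above the other 3. The log2 fold change of 3.90 ± 1.58 SE was not called (adjusted p = 0.688 from edgeR and 0.310 from DESeq2). *Cxcl1* was at 8.72, 5.46, 5.17 and 3.18 CPM against 1.39, 1.79 and 4.34 CPM, with a log2 fold change of 1.17 ± 0.55 SE (adjusted p = 0.688 from edgeR), and the carcinoma WT 1 lay among the *Lats2*-CKO tumors. *Cxcl2* was at 0 to 0.207 CPM in *Lats2*-CKO and 0.0372 to 0.0869 CPM in WT tumors. Subtracting the fold change of the *Lats2* experiment from that of the *Lats1* experiment gave 1.137 ± 1.85 SE for *Cxcl5*, -0.05 for *Cxcl1* and 1.83 for *Cxcl2* on the log2 scale (adjusted p = 0.925, 0.993 and 0.913 from edgeR), so that no difference between the genotypes was shown for these ligands.

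The receptors of these ligands were measured at low levels. *Cxcr2*, singled out after its values were seen, was at 0.690, 0.886, 0.687 and 2.96 CPM in *Lats1*-CKO and 0.0384, 0.122 and 2.85 CPM in their WT tumors, and at 0.451, 0.0949, 0.0389 and 0.104 (CKO) and 3.48, 0.0745 and 0.0356 (WT) CPM in *Lats2*-CKO and WT tumors of the other experiment. The lymphocyte-rich WT 14 and WT 22 were as high as the adenosquamous tumor, and the other 3 *Lats1*-CKO tumors were above WT 17 and 20. Without WT 22, DESeq2 gave a log2 fold change of 4.03 for *Cxcr2* (adjusted p = 0.0298). *Cxcr1* had 0 to 7 counts per library and 0 in all 4 *Lats2*-CKO tumors, and no fold is given for it, although it was among the 4 members with the smallest p in the difference between the genotypes. Neutrophil markers (9 of 12 measured in both sheets, *Ly6g*, *Retnlg* and *Stfa2l1* not among them) summed to 44.4, 77.1, 73.4 and 224 CPM in *Lats1*-CKO and to 26.9, 19.9 and 37.4 CPM in WT tumors, and to 24.0, 61.8, 27.9 and 28.8 (CKO) and 11.3, 23.8 and 20.6 (WT) CPM in *Lats2*-CKO and WT tumors. In *Lats1*-CKO 18 and 14 most of the sum was *Cd177* (51.1 and 55.2 CPM) and in the adenosquamous tumor *S100a8* (133 CPM), which squamous epithelium also expresses, was the largest part, while the granule genes *Camp* and *Ngp* were at 0 to 0.311 and 0 to 1.03 CPM in the 14 libraries. All 11 neutrophil markers measured in the *Lats1* experiment had a log2 fold change above 0 in *Lats1*-CKO tumors, with a median of 1.82. In *Lats2*-CKO tumors 7 of 9 were above 0 and 2 below, with a median of 0.78. *S100a9* was at 3.94, 7.38, 1.65 and 17.5 CPM in *Lats1*-CKO against 0.307, 0.446 and 0.616 CPM in WT tumors and *Mmp8* at 0.493, 0.295, 0.229 and 1.25 against 0.192, 0.122 and 0.0385 CPM, both without overlap, and *Mmp9* was at 39.9 CPM in the adenosquamous tumor. The part of these markers in the differences of the ligands was not tested.

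**Figure D2:**
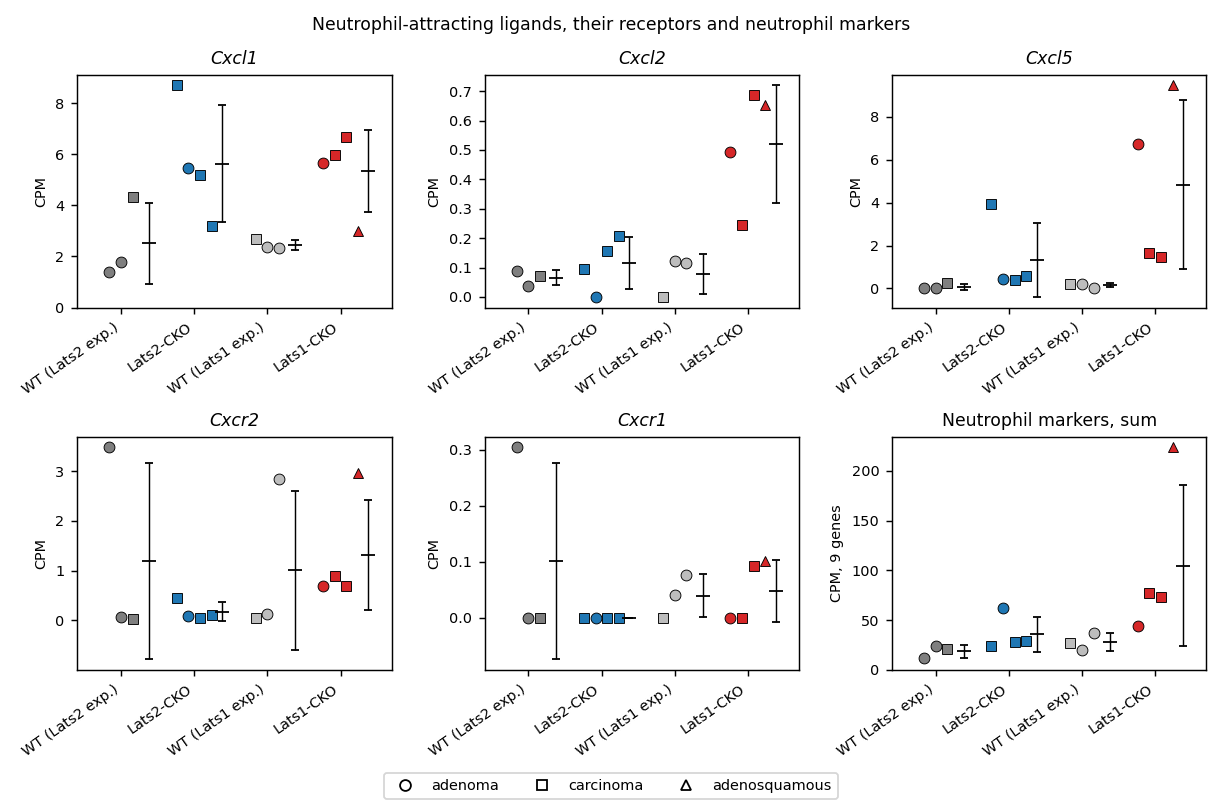
Levels in CPM of 3 neutrophil-attracting ligands, their receptors *Cxcr2* and *Cxcr1*, and the sum of 9 neutrophil markers in each tumor (points, shaped by histology) of the 4 groups, with mean and SD beside the points. *Cxcl5* is at 1.46 to 9.49 CPM in the 4 *Lats1*-CKO tumors and at 0.0385 to 0.203 CPM in their WT tumors, and *Cxcr2* is highest in WT 14, the adenosquamous tumor and WT 22.

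Several chemokines and receptors of lymphoid tissue were highest in WT 14 and WT 22, the tumors with the most lymphocyte transcripts. In both of these tumors 15 members were above all other 12 libraries (30% of the members, against 7.74% of all genes in both sheets): the ligands *Ccl5*, *Ccl17*, *Ccl19*, *Ccl22*, *Ccl24* and *Cxcl13* and the receptors *Ccr2*, *Ccr4*, *Ccr6*, *Ccr7*, *Ccr8*, *Ccr9*, *Cxcr3*, *Cxcr5* and *Cxcr6*. By a margin chosen after the values were seen, 9 of them were at least 1.5 times the highest other library in both tumors. The other 6 were closer in at least 1 of both, namely *Ccl17* (1.13156 times in WT 22), *Ccl24* (1.01 times in each), *Ccr2* (1.47 times in WT 14 and 1.09 in WT 22), *Ccr8* (1.00336 times in WT 22), *Cxcr3* (1.10 times in WT 22) and *Cxcr6* (1.31 times in WT 22). *Ccr7*, the receptor by which lymphocytes and dendritic cells home to lymph nodes, was at 375 CPM in WT 14 and 64.9 CPM in WT 22. In the other WT tumors it was at 1.75 and 1.07 CPM (2 and 1) and at 0.499 and 0.528 CPM (17 and 20), with 1.16, 0.759, 2.72 and 1.28 CPM in *Lats2*-CKO and 2.76, 0.0984, 0.595 and 0.853 CPM in *Lats1*-CKO tumors. All the *Ccr7* values outside WT 14 and WT 22 lay within 0.0984 to 2.76 CPM, and the CKO and WT tumors overlapped there.

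The ligand of Ccr7 measured here, *Ccl19*, which lymph node stroma makes, was at 104, 0.149 and 0.142 CPM in the WT and 0.0644, 0.0475, 0.739 and 0.207 CPM in the *Lats2*-CKO tumors, and at 0.192, 0.446 and 22.2 (WT) and 0.986, 0, 0.0458 and 0.0502 (CKO) CPM in the *Lats1* experiment. *Ccl19* has near-identical copies in the mouse genome, and its counts are uncertain for that reason. *Cxcl13*, the B cell attractant of lymphoid follicles, was at 143, 0.521 and 0.142 CPM and 2.03, 0.332, 2.14 and 0.380 CPM in the WT and *Lats2*-CKO tumors and at 0, 0 and 57.6 (WT) and 1.23, 0, 0.229 and 0.753 (CKO) CPM in the WT and *Lats1*-CKO tumors of the *Lats1* experiment. Its receptor *Cxcr5* was at 83.8, 0.670 and 0.960 (WT) and 0.708, 0.427, 1.09 and 0.415 (CKO) CPM in the *Lats2* experiment and at 0.767, 1.34 and 23.7 (WT) and 1.68, 1.57, 1.144 and 1.004 (CKO) CPM in the *Lats1* experiment. In each case WT 14 was highest and WT 22 second. The other 12 libraries held 0 to 20 counts of *Ccl19*, 0 to 63 of *Cxcl13* and 9 to 34 of *Cxcr5*. Of 10 markers of lymphoid follicles and of lymph node stroma and vessels, 6 were higher in both tumors than in any other library, among them *Cr2* (225 and 63.8 CPM against at most 2.17 CPM elsewhere) and *Chst4* (13.8 and 2.65 against at most 0.0986 CPM), which high endothelial venules express. *Cr2* and *Fcer2a*, which are among the 6, also stand in the list of B and plasma cell markers above. The other 4 of the 10 were not higher in both tumors. *Glycam1*, which the mammary epithelium also makes, was highest in *Lats2*-CKO 7 (1344 CPM, against 1269 and 490.3), *Pdpn* in *Lats1*-CKO 27 (71.7 CPM), *Tnfsf11* in WT 17 (6.64 CPM) and *Prox1* in WT 1 (4.59 CPM). The 10 genes summed to 1811 CPM in WT 14, 1355 CPM in *Lats2*-CKO 7 and 671 CPM in WT 22. Whether a piece of lymph node was in these samples was not tested.

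*Ccl22*, by which dendritic cells draw Ccr4-bearing T cells, was at 287, 1.86 and 1.81 (WT) and 0.483, 1.33, 2.02 and 1.45 (CKO) CPM in the *Lats2* experiment and at 1.42, 1.06 and 42.6 (WT) and 1.63, 0.0492, 0.687 and 0.753 (CKO) CPM in the *Lats1* experiment. *Ccl5* (RANTES), made by T and NK cells, was at 516, 6.82 and 4.48 (WT) and 6.25, 6.88, 19.7 and 8.74 (CKO) CPM in the *Lats2* experiment and at 1.266, 1.502 and 96.5 (WT) and 4.63, 1.23, 6.77 and 1.25 (CKO) CPM in the *Lats1* experiment. Per kilobase its level in WT 14 (969.7 CPM per kb) was the highest of any member in any library. *Lats2*-CKO 16, whose T and NK cell markers (84.0 CPM) came next after those of WT 14 and WT 22, was also next in *Ccl5*. *Ccr9*, the receptor of gut and thymus homing, was at 35.5, 0.149 and 0.391 (WT) and 0.290, 0.285, 0.350 and 0.345 (CKO) CPM in the *Lats2* experiment and at 0.0767, 0.162 and 8.35 (WT) and 0.542, 0.541, 0.320 and 0.351 (CKO) CPM in the *Lats1* experiment. *Cxcr4*, which leukocytes and many other cells carry, moved less, at 156, 51.0 and 74.9 (WT) and 82.5, 31.4, 52.8 and 49.2 (CKO) CPM in the *Lats2* and 53.0, 59.2 and 56.0 (WT) and 44.4, 34.6, 38.1 and 52.4 (CKO) CPM in the *Lats1* experiment. Only WT 14 was far above the others for *Cxcr4*, and the 4 *Lats1*-CKO tumors were below the 3 WT tumors. That difference, a log2 fold change of -0.43 ± 0.15 SE, was not called (adjusted p = 0.393 from edgeR and 0.208 from DESeq2), though DESeq2 called it without the adenosquamous tumor 21 (-0.54, adjusted p = 0.00626).

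**Figure D3:**
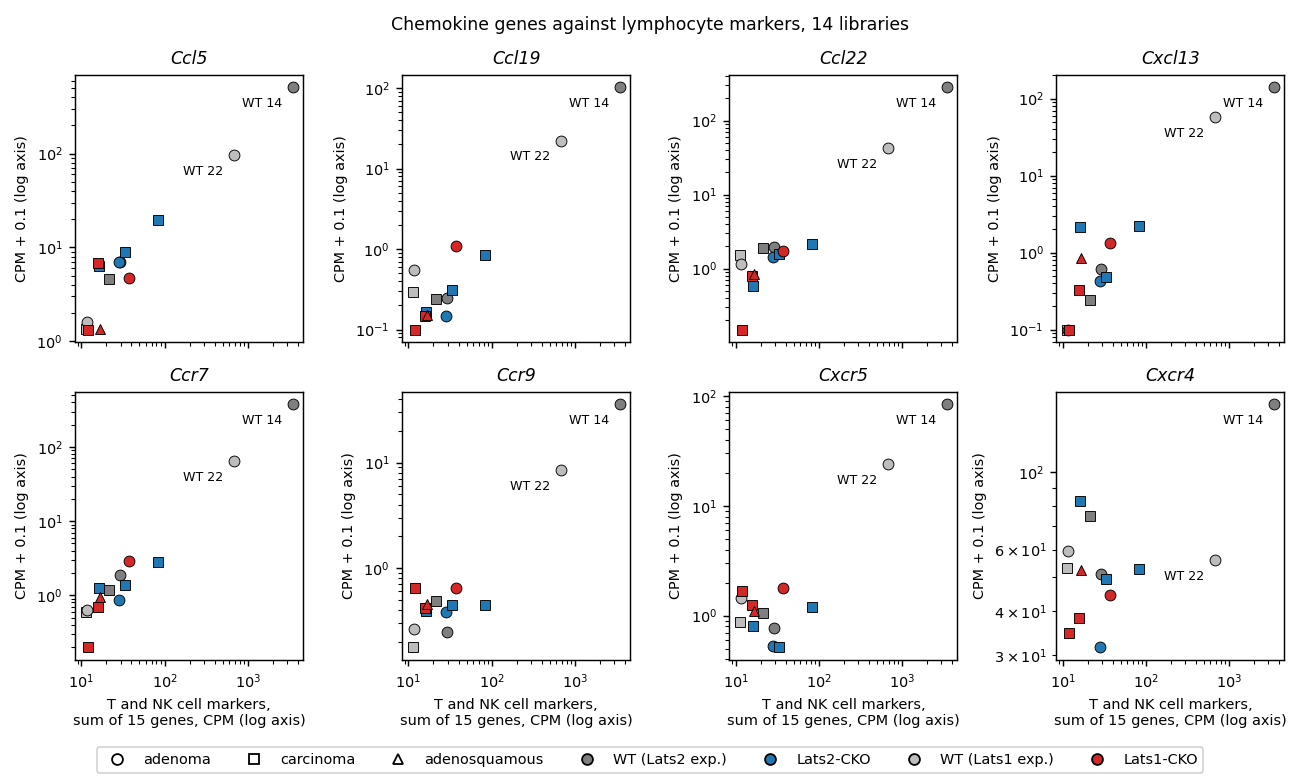
Levels of 8 members (CPM + 0.1, log axis) against the summed level of 15 T and NK cell markers (CPM, log axis) in the 14 libraries, colored by group and shaped by histology. In 7 of the panels WT 14 and WT 22 lie at the upper right, apart from the other 12 libraries, and in the *Cxcr4* panel WT 14 alone does.

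Members were then compared between *Lats2*-CKO and WT tumors over the whole sheet of 17702 genes. At an adjusted p under 0.05 edgeR called 0 members in either direction (0% of all genes in each), and DESeq2 called 0 of the 34 members to which it gave an adjusted p (0.11% of all genes called higher and 0.779% lower). DESeq2 gave no p to *Ccl5*, *Ccl19*, *Ccl22*, *Cxcl13*, *Ccr4*, *Ccr6*, *Ccr7*, *Ccr9* and *Cxcr5*, among others, and could not call these. Each of those named was lower with edgeR at an unadjusted p under 0.05. The log2 fold changes were above 0 for 12 members (24%, against 49.7% of all genes) and below 0 for 38 (76%, against 50.3%). Their median was -0.79, and that of all genes -0.00279. The receptors had a median of -2.71 (15 of 17 below 0) and the ligands of -0.31 (23 of 33). Marker lists were counted in the same comparison, by the sign of the log2 fold change. T and NK cell markers were below 0 for 15 of 15 (median -4.71, sums of 16.4 to 84.0 CPM in *Lats2*-CKO and 21.3 to 3498 CPM in WT tumors), B and plasma cell markers for 12 of 13 (-7.04, 3.09 to 151 and 3.38 to 2409.6 CPM), adipocyte markers for 12 of 12 (-4.90, 26.4 to 509 and 180.2 to 9332 CPM) and endothelial markers for 10 of 10 (-1.15, 59.6 to 179.9 and 51.6 to 487 CPM). Skeletal muscle genes were above 0 for 8 of 8 (7.15, 1.79 to 2523 and 1.96 to 10.5 CPM). Milk protein genes were above 0 for 6 of 6 (3.67, 4597 to 77292 and 1457 to 11217 CPM). Both highest sums were those of *Lats2*-CKO 7, and the other *Lats2*-CKO tumors held at most 16.2 and 11104 CPM. The part of these lists in the values of the members was not tested. At an unadjusted p under 0.05 with edgeR, 2 members were higher (4%, against 1.175% of all genes), and 10 lower (20%, against 5.91%). The 4 smallest p-values were those of *Ccl22* (log2 fold change -6.17 ± 1.84 SE), *Cxcr5* (-5.40 ± 1.67 SE), *Ccr7* (-6.38 ± 1.98 SE) and *Ccr9* (-5.20 ± 1.71 SE), each with an adjusted p of 0.688 from edgeR. These values rest on WT 14. Without it 0 members were lower at an unadjusted p under 0.05 (2.164% of all genes), and the log2 fold changes became -0.47 for *Ccl22*, -0.30 for *Cxcr5*, 0.07 for *Ccr7* and 0.23 for *Ccr9*. The number of lower members was 4 without the library labelled *Lats2*-CKO 1, without *Lats2*-CKO 7 or without *Lats2*-CKO 8 (8% of the members, against 2.91% to 3.53% of all genes in these fits), and 23 without WT 1 (46%, against 12.2%), so that the number of all genes moved with it.

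The 2 members that were higher at an unadjusted p under 0.05, *Cxcl5* and *Ccl3*, were also the only ones whose *Lats2*-CKO and WT tumors did not overlap with the *Lats2*-CKO tumors higher (4%, against 1.43% of all genes), and 0 were lower without overlap (2.26% of all genes). *Ccl3*, a macrophage ligand of Ccr1 named here after its values were seen, was at 1.80, 1.04, 2.02 and 1.04 CPM (56, 22, 52 and 30 counts) against 0.565, 0.484 and 0.747 CPM (13, 13 and 21 counts), a log2 fold change of 1.30 ± 0.48 SE (adjusted p = 0.688 from edgeR). The number of higher members was 0 without WT 14 or WT 2, 1 without *Lats2*-CKO 1, 16 or 8 and 4 without WT 1, where 0.684% to 1.02%, 0.977% to 1.44% and 2.51% of all genes were higher. Macrophage and monocyte markers (11 of 12 measured) summed to 587 to 1279.7 CPM in *Lats2*-CKO and 739 to 1087 CPM in WT tumors, and their part in this was not tested.

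Between *Lats1*-CKO and WT tumors, over 17763 genes, edgeR likewise called 0 members at an adjusted p under 0.05 (0.00563% of all genes were called higher and 0.0169% lower). DESeq2 called 2 of 34 members higher, *Cxcl5* and *Cxcl1*, beside 1.94% of all genes, and 0 lower, beside 2.02%. It gave no p to *Ccl19*, *Ccl22*, *Ccr7* and *Cxcr5*, among others, and could not call these. The log2 fold changes were above 0 for 22 members (44%, against 49.6% of all genes) and below 0 for 28 (56%, against 50.4%), with a median of -0.13 beside -0.00287 over all genes. The neutrophil-attracting CXC ligands were the role with the highest median, 1.85 over 4 genes, followed by the interferon-induced ligands of Cxcr3 (1.68 over 3 genes). The neutrophil-attracting ligands also had the highest median of the roles in *Lats2*-CKO tumors (0.997). The receptors had a median of -0.89 in *Lats1*-CKO tumors (11 of 17 below 0). The marker lists were counted in the same way. Squamous epithelium markers were above 0 for 8 of 9 (median 4.17), T and NK cell markers below 0 for 15 of 15 (-3.83, sums of 12.1 to 37.2 CPM in *Lats1*-CKO and 11.2 to 678 CPM in WT tumors), B and plasma cell markers for 13 of 13 (-4.55, 2.79 to 31.1 and 3.26 to 653 CPM) and adipocyte markers for 12 of 12 (-2.55, 21.5 to 853 and 853 to 1916 CPM). The 7 squamous markers in both sheets summed to 7.40, 8.12, 6.77 and 431 CPM in *Lats1*-CKO and 34.8, 6.21 and 3.62 CPM in WT tumors. The part of these lists in the values of the members was not tested. At an unadjusted p under 0.05 with edgeR 4 members were higher (8%, against 4.76% of all genes), *Cxcl5*, *Cxcl1*, *Cxcl2* and *Ccr1*, and these were also the 4 that were higher without overlap (4.88% of all genes). At that p, 6 members were lower (12%, against 6.58%), and only *Cxcr4* was lower without overlap (6.47% of all genes). Without WT 22 the number of lower members was 0 (3.96% of all genes) and that of higher members 8 (16%, against 3.73%). It was also 0 lower without *Lats1*-CKO 14 (4.66% of all genes). Without *Lats1*-CKO 18 it was 3 lower and 8 higher (5.82% and 5.62% of all genes), without *Lats1*-CKO 21 it was 2 lower (7.01%) and without WT 17 it was 11 lower (5.66%).

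*Ccr1*, a receptor of monocytes and neutrophils for Ccl3, Ccl5 and other CC ligands, was at 11.1, 8.56, 10.1 and 13.5 CPM in *Lats1*-CKO and 7.67, 7.39 and 4.85 CPM in WT tumors, and at 6.47, 3.99, 2.101 and 4.42 (CKO) and 2.96, 4.51 and 8.57 (WT) CPM in *Lats2*-CKO and WT tumors of the other experiment. The *Lats1*-CKO tumors were all above their WT tumors, by a log2 fold change of 0.68 ± 0.26 SE (adjusted p = 0.416 from edgeR), whereas the groups of the *Lats2* experiment overlapped. The difference between the genotypes, 1.04 ± 0.58 SE, was not called (adjusted p = 0.913).

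The *Lats1*-CKO change was set against the *Lats2*-CKO change in a fit over all 14 libraries. At an adjusted p under 0.05 edgeR called 0 of 50 members and DESeq2 0 of the 31 to which it gave an adjusted p. Of all genes, edgeR called 0.0116% of 17232 toward *Lats1*-CKO and 0.0058% the other way, and DESeq2 0.0502% and 0.0645%. The difference was above 0 for 37 members (74%, against 56.5% of all genes) and below 0 for 13 (26%, against 43.5%). At an unadjusted p under 0.05 with edgeR, 1 member differed toward *Lats1*-CKO (2%, against 1.97% of all genes) and 0 the other way (1.2%). This was *Cxcl10*, an interferon-induced ligand of Cxcr3, with 18.7, 0.541, 8.38 and 2.41 CPM in *Lats1*-CKO and 0.806, 0.568 and 2.89 CPM in WT tumors of the *Lats1* experiment, and 7.02, 3.94, 9.22 and 4.46 CPM in *Lats2*-CKO and 41.9, 4.92 and 4.20 CPM in WT tumors of the *Lats2* experiment. The groups overlapped in both, with *Lats1*-CKO 18 as low as the WT tumors and WT 14 the highest of all. The difference was 3.86 ± 1.54 SE on the log2 scale (adjusted p = 0.913 from edgeR), and it was 1.96 to 4.95 when each library was left out in turn. The number of members past an unadjusted p under 0.05 was 0 without *Lats1*-CKO 27, WT 17 or WT 20 (1.08% to 1.54% of all genes toward *Lats1*-CKO), and 2 without *Lats2*-CKO 1 or 16 or WT 1 or 2 (1.59% to 6.43%). It was 12 without WT 22 (24% of the members, against 3.49% of all genes) and 0 without both WT 14 and WT 22 (1.03%).

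The next member by p in this contrast was *Ccr8*, the receptor of Ccl1 on regulatory T cells, with 0.345, 0.0984, 0.229 and 0.201 (CKO) and 0.0767, 0.0406 and 0.346 (WT) CPM in the *Lats1*-CKO and WT tumors and 0, 0.237, 0.311 and 0.104 (CKO) and 4.30, 0.186 and 0.213 (WT) CPM in the *Lats2*-CKO and WT tumors. Outside WT 14 the *Ccr8* values were all under 0.35 CPM (0 to 9 counts), and the difference of 3.73 ± 1.76 SE (adjusted p = 0.913) ranged from 0.80 to 5.10 when each library was left out in turn. *Cxcl9*, the other abundant interferon-induced ligand of Cxcr3, was at 58.8, 15.8 and 6.26 (WT) and 3.09, 4.70, 21.6 and 8.39 (CKO) CPM in the *Lats2* experiment and at 0.998, 1.99 and 10.8 (WT) and 8.68, 0.295, 2.06 and 1.66 (CKO) CPM in the *Lats1* experiment, again with overlapping groups. *Cxcl11*, which lies beside both on chromosome 5, had 0 to 2.69 CPM.

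**Figure D4:**
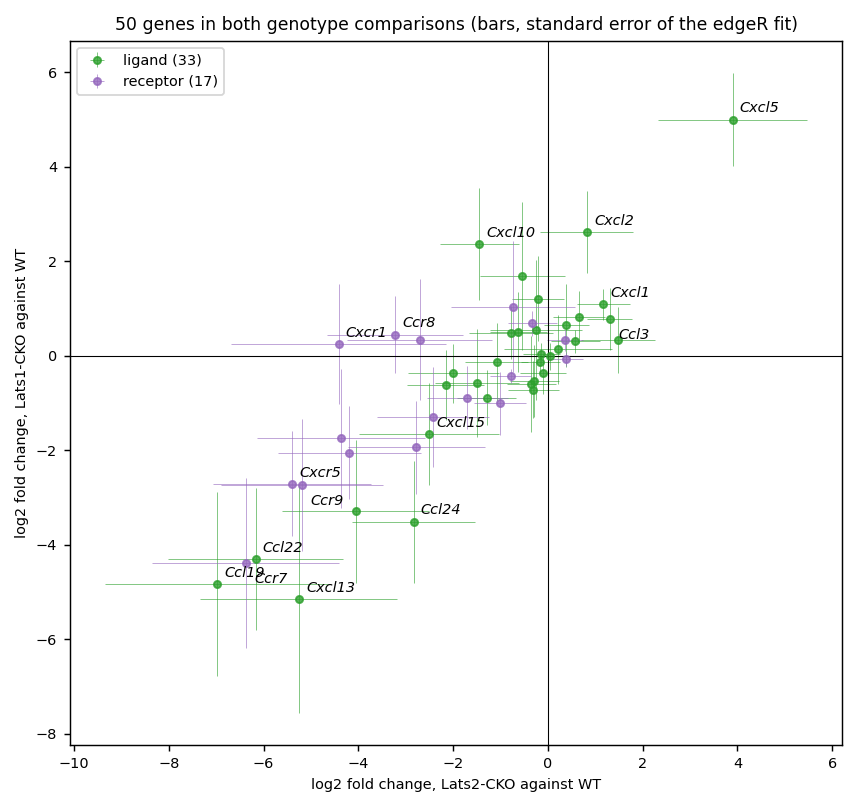
Log2 fold changes of the 50 members in *Lats2*-CKO (horizontal) and *Lats1*-CKO (vertical) tumors against the WT tumors of the same experiment, with standard errors of the edgeR fit as bars, for 33 ligands (green) and 17 receptors (purple). *Cxcl5* lies at 3.90 and 4.997, and the lymphoid members at the lower left, such as *Ccr7* at -6.38 and -4.39, are those high in WT 14 and WT 22. The point of *Cxcr1* depends on the prior count, since it had 0 counts in all *Lats2*-CKO tumors.

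Histology was compared over both experiments, with 7 carcinomas against 6 adenomas, the genotype and experiment held in the fit and the adenosquamous tumor kept out of the contrast. At an adjusted p under 0.05 edgeR called 0 members (0% of 17232 genes in either direction). DESeq2 called 2 of 50 members lower in carcinomas, *Ccl6* and *Ccl19*, beside 0.549% of all genes, and 0 higher, beside 0.0818%. The log2 fold changes were above 0 for 10 members (20%, against 46.4% of all genes) and below 0 for 40 (80%, against 53.6%), with a median of -0.94 beside -0.02 over all genes. All 6 monocyte-attracting CC ligands were below 0 (median -0.75), 3 of them at an unadjusted p under 0.05. At an unadjusted p under 0.05 with edgeR, 2 members were higher in carcinomas (4%, against 2.02% of all genes) and 5 lower (10%, against 2.7%).

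*Ccl6*, a ligand of Ccr1 in mouse myeloid cells, had the smallest p. Its lowest, median and highest values were 10.8, 20.5 and 25.6 CPM in adenomas and 3.30, 8.03 and 12.8 CPM in carcinomas, with 18.7 CPM in the adenosquamous tumor. By group, *Ccl6* was at 10.8, 20.5 and 8.03 (WT) and 4.31, 17.3, 12.8 and 7.74 (CKO) CPM in the *Lats2* and at 11.4, 25.6 and 25.2 (WT) and 20.6, 3.30, 8.74 and 18.7 (CKO) CPM in the *Lats1* experiment. All adenomas but WT 14 were above all carcinomas. The log2 fold change was -1.24 ± 0.33 SE, with an adjusted p of 0.824 from edgeR and 0.0398 from DESeq2. The DESeq2 call was lost without WT 1, 2, 17, 20 or 22, *Lats2*-CKO 7 or 8 or *Lats1*-CKO 27 (adjusted p from 0.0539 to 0.308), and without both WT 14 and WT 22 (0.0563), while the log2 fold change stayed between -1.36 and -1.08. *Ccl6* in *Lats2*-CKO and *Lats1*-CKO tumors against WT had log2 fold changes of -0.31 and -0.72, neither called (adjusted p = 0.867 and 0.677 from edgeR).

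*Ccl9*, the neighbor of *Ccl6* on chromosome 11 and also a myeloid ligand of Ccr1 in mouse, had 10.4, 19.2 and 21.7 CPM (lowest, median and highest) in adenomas and 5.22, 11.3 and 14.1 CPM in carcinomas, with 20.9 CPM in the adenosquamous tumor. By group it was at 10.4, 17.99 and 11.3 (WT) and 5.22, 21.7, 12.7 and 9.604 (CKO) CPM in the *Lats2* experiment and at 14.1, 19.5 and 20.4 (WT) and 18.9, 5.56, 11.3 and 20.9 (CKO) CPM in the *Lats1* experiment. As for *Ccl6*, the adenomas other than WT 14 were above all carcinomas. The log2 fold change was -0.82 ± 0.28 SE (adjusted p = 0.824 from edgeR and 0.220 from DESeq2). Without WT 14 it was -0.92 for *Ccl9* and -1.33 for *Ccl6*.

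*Ccl8*, a monocyte attractant, had 7.54, 20.7 and 30.4 CPM in adenomas and 1.82, 6.52 and 10.2 CPM in carcinomas (lowest, median and highest), and its log2 fold change was -1.62 ± 0.58 SE (adjusted p = 0.824 from edgeR). *Ccl24*, an attractant of eosinophils through Ccr3, had 0.148, 0.850 and 1.43 CPM (3 to 38 counts) in adenomas and 0, 0.0458 and 0.195 CPM (0 to 5 counts) in carcinomas, and its log2 fold change was -3.03 ± 1.02 SE (adjusted p = 0.824 from edgeR). In both genes the histologies overlapped, in *Ccl8* through the adenoma *Lats2*-CKO 7. Neither was called by edgeR or DESeq2, though DESeq2 called both without *Lats2*-CKO 7 (adjusted p = 0.0328 and 0.0278), among 10 of 47 members lower in carcinomas in that fit, which did not hold *Ccl6*, where 1.67% of all genes were lower. *Ccl19*, called by DESeq2 (log2 fold change -5.44, adjusted p = 0.0163), rested on WT 14 and WT 22. Its other 4 adenomas were at 0.0475 to 0.986 CPM and the carcinomas at 0 to 0.739 CPM, and without both tumors its DESeq2 log2 fold change was -1.49 (adjusted p = 0.999). Its call was also lost without WT 14, 1, 17 or 22, *Lats2*-CKO 1 or 8 or *Lats1*-CKO 27 (adjusted p from 0.081 to 0.9998).

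Members higher in carcinomas at an unadjusted p under 0.05 were *Cx3cl1* and its receptor *Cx3cr1*, which mononuclear phagocytes carry. *Cx3cl1* had 50.1, 107 and 144 CPM in adenomas and 114, 181 and 280.1 CPM in carcinomas (lowest, median and highest), and *Cx3cr1* had 23.8, 29.9 and 35.8 and 28.6, 38.1 and 69.8 CPM. The histologies overlapped in both genes. The log2 fold changes were 0.69 ± 0.30 SE and 0.45 ± 0.20 SE, with an adjusted p of 0.824 each from edgeR, and the pair no longer passed an unadjusted p under 0.05 without WT 14, 2, 1 or 22, *Lats2*-CKO 7 or *Lats1*-CKO 18, when 0 members were higher (0.905% to 3.66% of all genes). Without *Lats2*-CKO 1, 16 or 8 the number was 1 (1.36% to 1.93%). The number of lower members was 13 without *Lats2*-CKO 7 (26%, against 5.02% of all genes), 8 without *Lats2*-CKO 16 (16%, against 2.68%), 3 without WT 1 (1.28% of all genes) and 2 without *Lats1*-CKO 27 (2.09%). Within the *Lats2* experiment alone 0 members were lower and 1 higher (2.99% and 1.56% of all genes), and within the *Lats1* experiment alone 8 were lower and 0 higher (2.51% and 1.996%). Adipocyte markers (12 genes) summed to 509 to 9332 CPM in adenomas and 21.5 to 1056 CPM in carcinomas, and macrophage and monocyte markers to 569 to 1279.7 and 457 to 1134 CPM. T and NK cell markers summed to 11.5 to 3498 and 11.2 to 84.0 CPM, and B and plasma cell markers to 3.61 to 2409.6 and 2.79 to 151 CPM, where both lymphocyte-rich tumors are adenomas. Fibroblast markers summed to 447 to 3275 and 711 to 2195 CPM and endothelial markers to 59.6 to 487 and 51.6 to 234 CPM. The log2 fold change was below 0 for 15 of 15 T and NK cell (median -3.39), 13 of 13 B and plasma cell (-5.87), 12 of 12 adipocyte (-2.92), 10 of 10 fibroblast (-0.77), 10 of 10 endothelial (-0.43) and 8 of 11 macrophage and monocyte markers (-0.46). Their part in these differences was not tested.

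**Figure D5:**
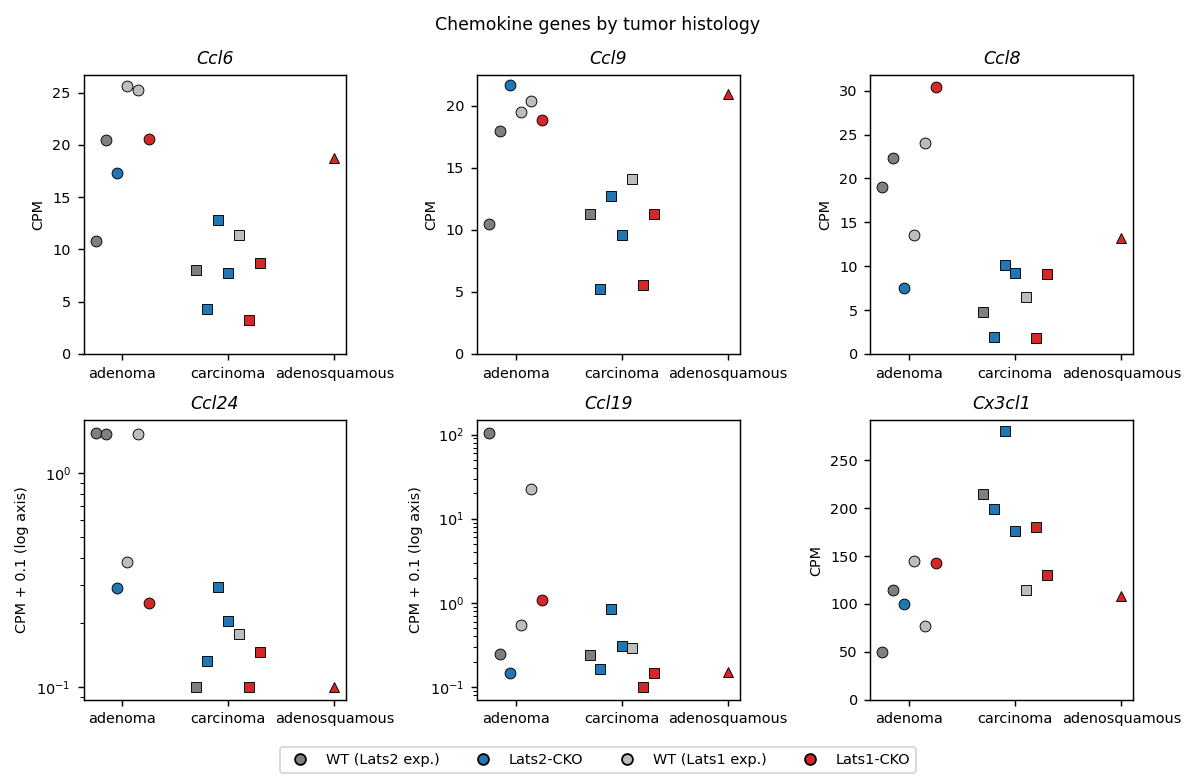
Levels of 6 members in adenomas (6), carcinomas (7) and the adenosquamous tumor, colored by genotype group, in CPM (*Ccl6*, *Ccl9*, *Ccl8* and *Cx3cl1*) or CPM + 0.1 on a log axis (*Ccl24* and *Ccl19*). *Ccl6* is at 17.3 to 25.6 CPM in all adenomas but WT 14, at 10.8, and at 3.30 to 12.8 CPM in carcinomas, and the 2 highest *Ccl19* values are those of WT 14 and WT 22.

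The epithelial and membrane-anchored ligands and the remaining receptors were not called in any comparison. *Cx3cl1* was at 50.1, 115 and 215 (WT) and 199, 100.03, 280.1 and 176 (CKO) CPM in the *Lats2* experiment and 114, 144 and 77.4 (WT) and 142, 181, 130.3 and 109 (CKO) CPM in the *Lats1* experiment, lowest in WT 14. *Cx3cr1* was at 23.8, 32.4 and 50.4 (WT) and 38.1, 33.1, 69.8 and 43.3 (CKO) CPM in the *Lats2* experiment and at 33.2, 35.8 and 25.7 (WT) and 27.3, 34.3, 28.6 and 32.0 (CKO) CPM in the *Lats1* experiment. For both genes the CKO and WT tumors overlapped, and *Lats2*-CKO 16 was the highest library. *Cxcl16*, which is cleaved from the membrane to attract Cxcr6-bearing T cells, was at 112, 36.5 and 54.7 (WT) and 45.2, 64.2, 83.7 and 51.3 (CKO) CPM in the *Lats2* experiment and at 38.2, 36.0 and 53.7 (WT) and 47.7, 31.3, 41.0 and 57.8 (CKO) CPM in the *Lats1* experiment. *Cxcl14*, made by many epithelia, was at 14.5, 53.9 and 38.1 (WT) and 50.3, 24.4, 61.4 and 49.3 (CKO) CPM in the *Lats2* experiment and at 28.8, 32.5 and 28.8 (WT) and 46.5, 6.94, 13.5 and 124 (CKO) CPM in the *Lats1* experiment. Its highest value was that of the adenosquamous tumor, whose squamous markers (7 of 11 measured) summed to 431 CPM against 5.25 to 34.8 CPM in the carcinomas. *Ccl27a*, a skin ligand of Ccr10, held nearly level at 1.74 to 4.33 CPM over the 14 libraries, with 1.74, 3.17 and 3.27 (WT) and 2.25, 3.61, 2.801 and 2.56 (CKO) CPM in the *Lats2* experiment and 3.95, 3.08 and 3.08 (WT) and 3.60, 4.33, 3.11 and 2.51 (CKO) CPM in the *Lats1* experiment. It has near-identical copies, which makes its counts uncertain.

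*Cxcl12*, the stromal ligand of Cxcr4, was at 235, 99.9 and 37.2 (WT) and 60.2, 21.2, 65.2 and 53.9 (CKO) CPM in the *Lats2* experiment and at 52.3, 41.5 and 84.2 (WT) and 74.8, 19.7, 14.2 and 22.4 (CKO) CPM in the *Lats1* experiment. The adenomas WT 14, WT 2 and WT 22 were the highest 3 libraries, and the groups overlapped. *Ccl4*, a ligand made by macrophages and T cells, was at 1.35, 1.08 and 1.209 (WT) and 3.19, 1.33, 2.26 and 0.795 (CKO) CPM in the *Lats2* experiment and at 0.576, 0.487 and 1.0003 (WT) and 1.73, 0.443, 1.51 and 1.31 (CKO) CPM in the *Lats1* experiment. The genotypes overlapped. *Ccl11*, the eosinophil attractant eotaxin, was at 11.9, 8.27 and 0.782 (WT) and 0.869, 1.99, 2.101 and 1.209 (CKO) CPM in the *Lats2* experiment and at 3.57, 5.80 and 6.62 (WT) and 6.46, 0.394, 3.94 and 3.36 (CKO) CPM in the *Lats1* experiment, and was among the 10 members lower in *Lats2*-CKO tumors at an unadjusted p under 0.05 (log2 fold change -2.16 ± 0.81 SE) although the carcinoma WT 1 was the lowest of its experiment. The monocyte attractants *Ccl2*, *Ccl7* and *Ccl12*, which act through Ccr2, had 0.344 to 8.04, 0.443 to 8.73 and 0.782 to 9.996 CPM over the 14 libraries, and *Ccr2* itself had 1.48 to 30.9 CPM.

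The other members were given by their ranges over the 14 libraries. *Ccl17*, *Ccl1* and *Xcl1* had 0.0644 to 3.998, 0 to 0.782 and 0.0502 to 4.26 CPM, and the mucosal ligands *Ccl20*, *Ccl25*, *Ccl28* and *Cxcl17* had 0 to 0.789, 1.44 to 4.18, 0.640 to 9.49 and 0.503 to 4.22 CPM. Among receptors, *Ccr3* and *Ccr10* had 0 to 0.9996 and 0.151 to 4.26 CPM, and the T cell receptors *Ccr4*, *Ccr6*, *Cxcr3* and *Cxcr6* had at most 0.502, 1.04, 3.93 and 6.65 CPM outside WT 14 and WT 22.

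Ligands and receptors that are textbook partners were correlated across tumors for 15 pairs, on log2 CPM with a prior count of 2, over 13 libraries without WT 14. All 15 Pearson coefficients were above 0 (median 0.62, from 0.03 to 0.91), and 4 passed an adjusted p under 0.05 over the 15 pairs, with 100000 permutations each. These were *Cx3cl1* with *Cx3cr1* (r = 0.84, permutation p = 1.80e-04, adjusted p = 0.0027, rho = 0.81, permutation p = 0.00153), *Cxcl9* with *Cxcr3* (r = 0.80, permutation p = 9.30e-04, adjusted p = 0.00465, rho = 0.82, permutation p = 9.80e-04), *Cxcl16* with *Cxcr6* (r = 0.76, permutation p = 0.00236, adjusted p = 0.00885, rho = 0.68, permutation p = 0.0121) and *Ccl19* with *Ccr7* (r = 0.91, permutation p = 3.70e-04, adjusted p = 0.002775, rho = 0.68, permutation p = 0.0128). By Spearman's rho 5 pairs passed. Pearson's r was above 0 for 12 of 15 pairs over all 14 libraries (median 0.69, lowest -0.42). Without WT 14 and WT 22 it was above 0 for 14 (median 0.63). It was above 0 for 11 (median 0.25) when, beside WT 14, the 2 libraries farthest from the median of the ligand were left out.

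The pairs were measured in the same libraries, and the part of cell content in these relations was not tested. Without WT 22 as well, 7 pairs passed, with r = 0.81, 0.83, 0.84 and 0.68 for the same 4 pairs and with *Cxcl5* and *Cxcr2* at r = 0.87 (permutation p = 2.80e-04, rho = 0.83) among the others, whereas *Cxcl13* and *Cxcr5* went from r = 0.66 to -0.15. When the 2 libraries farthest from the median of the ligand were left out, r was 0.67 for *Cx3cl1* and *Cx3cr1*, 0.67 for *Cxcl9* and *Cxcr3*, 0.62 for *Cxcl16* and *Cxcr6* and 0.58 for *Ccl19* and *Ccr7*, where these 4 did not pass the adjustment. This leaves 11 libraries and a narrower range of the ligand. Within the *Lats2* experiment the coefficients of these 4 pairs were 0.93, 0.90, 0.86 and 0.99, and within the *Lats1* experiment 0.58, 0.89, 0.84 and 0.95 (7 libraries each, exact permutation), and for *Cxcl5* and *Cxcr2* they were -0.20 and 0.37. With WT 14 and WT 22 left out of their experiments as well (6 libraries each), *Cxcl5* and *Cxcr2* had r = 0.78 in the *Lats2* and 0.91 in the *Lats1* experiment (exact permutation, p adjusted over the 15 pairs = 0.299 and 0.0938), so that the coefficient turned on these tumors, and over 13 and all 14 libraries it was 0.50 and 0.23. For the 4 pairs above r was then 0.90, 0.77, 0.68 and 0.89 in the *Lats2* and 0.18, 0.95, 0.92 and 0.75 in the *Lats1* experiment.

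Other genes of the chemokine pathway were counted by list. In *Lats1*-CKO tumors edgeR called 0.00563% of all genes higher and 0.0169% lower and DESeq2 1.94% and 2.02%, and in *Lats2*-CKO tumors edgeR called 0% in each direction and DESeq2 0.11% and 0.779%. The list of atypical and decoy receptors also named *Xcr1* and *Cmklr1*, which are conventional receptors. The median log2 fold change in *Lats1*-CKO tumors was 0.18 for this receptor list, -0.26 for the signal transducers, 0.25 for the genes that process or present chemokines and -0.10 for the inducers, beside -0.00287 over all genes. In *Lats2*-CKO tumors the same medians were -0.20, -0.43, 0.37 and -0.56, beside -0.00279. Of the 8 genes measured from this receptor list, 0 were called by edgeR in either genotype. DESeq2 called 1, *Ackr3*, a scavenger of Cxcl12, higher in *Lats1*-CKO tumors. *Ackr3* was at 27.9, 32.2, 31.9 and 24.2 CPM against 17.7, 13.5 and 13.7 CPM without overlap (log2 fold change 0.93 ± 0.17 SE, adjusted p = 0.177 from edgeR and 2.43e-05 from DESeq2). *Ccrl2*, which presents chemerin, had a log2 fold change of 0.68 (adjusted p = 0.411 from edgeR). In *Lats2*-CKO tumors 0 of the 8 were called by DESeq2 as well, and the smallest p-values were those of *Xcr1*, the receptor of Xcl1 on dendritic cells (-2.41), and *Ackr1*, the venular decoy (-2.63), where WT 14 was the highest tumor for both.

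Of 35 signal transducers of chemokine receptors, edgeR called 1 in *Lats1*-CKO tumors, *Lyn*, a Src-family kinase, and DESeq2 called 3, *Lyn*, *Ptk2b* and *Elmo1*, all lower. *Lyn* fell from 103, 92.6 and 93.8 CPM in WT to 48.1, 43.6, 36.4 and 45.6 CPM in *Lats1*-CKO tumors, with a log2 fold change of -1.18 ± 0.11 SE (adjusted p = 0.0414 from edgeR and 4.06e-15 from DESeq2). *Ptk2b*, a kinase of the focal adhesion kinase family, had 19.5, 14.4, 10.7 and 19.5 CPM against 31.7, 26.7 and 82.7 CPM, with WT 22 the highest (log2 fold change -1.59, adjusted p = 0.290 from edgeR and 0.0151 from DESeq2). *Elmo1*, a partner of Dock2 in the activation of Rac, had a log2 fold change of -0.73 (adjusted p = 0.315 from edgeR and 0.0478 from DESeq2), and is named because DESeq2 called it, after its value was seen. In *Lats2*-CKO tumors 0 of the 35 were called by either tool, and *Rac2* and *Dock2*, which leukocytes need to migrate, had log2 fold changes of -3.80 and -3.09 with 752 and 423 CPM in WT 14 and at most 27.4 and 27.7 CPM in the other 6 libraries. DESeq2 gave *Rac2* and *Dock2* no adjusted p.

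Of 9 genes that process or present chemokines, 0 were called by edgeR, and DESeq2 called 1 in *Lats1*-CKO tumors. This was *Dpp4*, a peptidase that trims chemokines, at 14.5, 18.7, 12.3 and 4.47 CPM against 42.3, 32.3 and 60.3 CPM in WT tumors, lower without overlap (log2 fold change -1.87 ± 0.45 SE, adjusted p = 0.235 from edgeR and 0.00308 from DESeq2). *Ext1*, which builds heparan sulfate, had 0.64 (adjusted p = 0.317 from edgeR). In *Lats2*-CKO tumors *Mmp12*, a macrophage elastase, had 1.46 and *Dpp4* -1.23, with 0 of the 9 called by either tool. Of 21 inducers of chemokine genes edgeR called 0, and DESeq2 called 2 in *Lats1*-CKO tumors. *Il1b*, the inflammatory cytokine interleukin-1β, was at 6.71, 5.07, 5.54 and 15.4 CPM against 1.73, 3.65 and 1.42 CPM, higher without overlap and highest in the adenosquamous tumor (log2 fold change 1.82 ± 0.55 SE, adjusted p = 0.332 from edgeR and 0.0284 from DESeq2), and *Ifngr1*, a chain of the interferon-γ receptor, had -0.35 (adjusted p = 0.283 and 0.0326). In *Lats2*-CKO tumors *Lta* and *Ltb*, the lymphotoxins of lymphocytes, had -4.88 and -4.95 without a call, and both were high in WT 14 (30.8 and 329.9 CPM). Neither got an adjusted p from DESeq2. Of the 4 ligands outside the Ccl and Cxcl names 0 were called by either tool in either genotype. *Mif* (0.81) and the platelet factor *Pf4* (-1.62) had the smallest p-values in *Lats2*-CKO, and *Ppbp* (2.12) and *Pf4* (-1.04) in *Lats1*-CKO tumors.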

How the data were processed

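RNA-seq was made from 14 MMTV-PyMT tumors, 500 ng of total RNA each, with the TruSeq v2 kit, which does not mark strand, and read as single-end 60-base reads. The authors mapped the reads with STAR to mm10 and quantified them on RefSeq genes, per the labels and the study's methods (the STAR version is not given in the sources used here), and deposited raw counts per gene in 1 sheet per experiment. The smallest summed count of a gene in the sheets is 6.

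Genes were tested with edgeR 4.0.16 (quasi-likelihood, TMM, R 4.3.3, limma 3.58.1) on the deposited counts, without a filter, with Benjamini-Hochberg adjustment over all genes of a fit, and with DESeq2 1.42.0 as an alternative, where some members get no adjusted p. In both an adjusted p under 0.05 was called. The fits were tested on simulated data with the same dispersion for all genes, where only well-counted genes were changed. This did not cover changes in genes with few counts or single outlying libraries. CPM used TMM over the 14 libraries and the 17232 shared genes. Correlations used scipy 1.17.1 (Python 3.11.15) on log2 CPM with a prior count of 2. Promoters are from RefSeq GRCm38.p6, and gene positions and exon lengths from GENCODE on GRCm38. The libraries held 18593864 to 31909282 counts. A count of 0 allows a level of up to 3 counts, and reads without molecular identifiers are not independent molecules.

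Groups came from the labels. Each experiment was 1 batch in the labels and held its own WT tumors, so that experiment and batch cannot be told apart. The members and gene lists were chosen with earlier results of these data known. Fold changes are given for members called by edgeR or DESeq2 and for the 4 with the smallest p in each comparison, and values by library also for the 2 of each role with the highest mean. For other pathway genes at most 2 per list and genotype are named. *Ccl3*, *Cxcr2*, *Cx3cl1*, *Cx3cr1* and *Ccl11* were given fold changes after their values were seen. *Ccl21a*, *Ccl21b*, *Ccl21c*, *Ccl26* and *Ccl27b* were not analysed here, and 1 member that enters the counts is not reported here by name. Alternatives were DESeq2, RLE size factors, filterByExpr, histology as a covariate, 1 fit over all libraries, other sets of tumors and leaving out each library in turn.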

Additional observations from a re-analysis of the deposited data

Results flagged for a closer look

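In 100 groups of 4 tumors (50 members in the *Lats2*-CKO and in the *Lats1*-CKO tumors), 5 held a tumor that stood apart from the other 3 by Dixon's test. Chance gives about 1 in 20, so that this number is no more than chance would give. In *Lats2*-CKO 7, the adenoma with skeletal muscle and milk protein transcripts, *Cxcl12* was low, at 21.2 CPM against 53.9 to 65.2 CPM in the other 3. In the library labelled *Lats2*-CKO 1, in which *Lats2* was at the level of the WT tumors, *Cxcl5* was high, at 3.93 CPM against 0.389 to 0.587 CPM. In *Lats1*-CKO 14 *Ccl17* was low, at 0.137 CPM against 0.753 to 0.986 CPM. In *Lats1*-CKO 27 *Cxcl15* was high, at 1.38 CPM against 0.0915 to 0.151 CPM. In *Lats1*-CKO 21, the adenosquamous tumor, *Cxcr2* was high, at 2.96 CPM against 0.687 to 0.886 CPM.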

How the results depend on the processing

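The number of members called by edgeR at an adjusted p under 0.05 was 0 in each of the 4 comparisons, and it was 0 in each fit that left out 1 library. DESeq2 called 2 in *Lats1*-CKO tumors (1 to 4 when 1 library was left out, in fits that called 1.19% to 3.40% of all genes higher and 1.28% to 3.26% lower, 1 with histology as a covariate) and 2 between carcinomas and adenomas (0 to 10 when 1 library was left out, in fits that called 0.128% to 1.67% of all genes lower, 0 without both WT 14 and WT 22). Counts at an unadjusted p under 0.05 moved more, and so did those of all genes, whose share in the same fits stands after most counts and ranges. In *Lats2*-CKO tumors 2 were higher (0 to 4 without 1 library, 0.684% to 2.51%, 1 with histology as a covariate, 1.22%) and 10 lower (0 to 23 without 1 library, 2.164% to 12.2%, 4 with DESeq2, 5.24%, 0 with histology as a covariate, 0.610%, 16 in 1 fit over 14 libraries, 10.7%). In *Lats1*-CKO tumors 4 were higher (3 to 8 without 1 library, 3.08% to 6.15%) and 6 lower (0 to 11 without 1 library, 3.96% to 7.01%, 2 with DESeq2, 6.10%, 0 with histology as a covariate, 4.93%, 3 in 1 fit, 3.03%). These DESeq2 counts of lower members cannot be set against those of edgeR, since DESeq2 gave no p to several members. In *Lats2*-CKO tumors *Ccl5*, *Ccl19*, *Ccl22*, *Cxcl13*, *Ccr4*, *Ccr6*, *Ccr7*, *Ccr9* and *Cxcr5*, all lower with edgeR, had none. In *Lats1*-CKO tumors *Ccl19*, *Ccl22*, *Ccr7* and *Cxcr5*, lower with edgeR, had none. Genes without a p stayed in the total of the DESeq2 shares. In the difference between genotypes 1 was higher (0 to 12 without 1 library, 1.08% to 6.43%, 0 without both WT 14 and WT 22, 1.03%). In carcinomas 2 were higher (0 to 2 without 1 library, 0.905% to 3.66%, 1 with the adenosquamous tumor as a carcinoma or in the *Lats2* experiment alone, 0 without both WT 14 and WT 22, in the *Lats1* experiment alone or in WT tumors only) and 5 lower (2 to 13 without 1 library, 1.28% to 5.02%, 18 with DESeq2, 6.12%, 8 in the *Lats1*, 2.51%, and 0 in the *Lats2* experiment alone, 2.99%). The log2 fold changes in *Lats2*-CKO tumors ranged from -7.07 to 0.0745 for *Ccr7* and from -5.87 to 0.23 for *Ccr9* when 1 library was left out, with the sign turned without WT 14 alone. Of 15 ligand and receptor pairs, 4 passed over 13 libraries, 10 over all 14, 7 over 12, 2 in the *Lats1* experiment, 4 in the *Lats2* experiment, 1 in the *Lats1* experiment without WT 22, 0 in the *Lats2* experiment without WT 14 and 1 without the 2 farthest libraries. The causes were not tested. No paired analysis was possible, because the controls were littermates but the labels do not give the litter. The tumors compared share at most 1 replicate number within an experiment, and that number names different mice. Single libraries were not left out for the pathway genes that are no members. Depth limits members such as *Cxcr1*, *Cxcl2* and *Ccr8*, whose libraries held few counts. Leaving out both WT 14 and WT 22, also within the experiments, the experiments alone and the DESeq2 fits without 1 library were chosen after seeing the data.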
